A study of Mus musculus with 30 samples.

Results

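Tianeptine and desipramine were compared in the nucleus accumbens of sham-operated mice. The comparison holds 10 of the 30 libraries of the study, 6 from sham mice on tianeptine and 4 from sham mice on desipramine, taken by their sample labels. All mice were C57Bl/6J males, and each library of polyadenylated RNA came from the bilateral accumbens punches of 1 animal. The sham mice had surgery without the tibial spared nerve injury (SNI). From 4 weeks after surgery they were injected intraperitoneally 2 times a day for 3 weeks with tianeptine at 30 mg/kg, desipramine at 15 mg/kg or saline. The doses of the drugs differ, so each difference below is between these drugs at these doses. The 5 sham mice on saline are given as the untreated level, and the 6 SNI mice on tianeptine and 4 on desipramine as a second, separate set of animals for the same contrast. The sources used here give neither the age of the mice nor the time of day of tissue collection.

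Tianeptine is an atypical antidepressant with a tricyclic skeleton that activates the mu-opioid receptor, encoded by Oprm1. Desipramine is a tricyclic antidepressant that blocks the noradrenaline transporter, encoded by Slc6a2. The nucleus accumbens is the ventral part of the striatum, where medium spiny neurons receive cortical, limbic and dopamine input. Several results concern the circadian clock, a transcription loop found in most cells. In it the activators CLOCK and BMAL1 (gene Arntl) bind E-box elements and switch on their own repressors, among them the period (Per) and cryptochrome (Cry) genes, Ciart and the nuclear receptors Nr1d1 and Nr1d2. The nuclear receptors in turn repress Arntl through ROR elements, and output factors such as DBP act on D-box elements.

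The desipramine libraries held 24.8 to 35 M (mega) counts and the tianeptine libraries 27.8 to 106.9 M. Replicates 5 and 6 of tianeptine belong to a second, deeper library set, in which they held 104.6 and 106.9 M counts and which holds no desipramine library. The library set was therefore a term of the model, whose effect was estimated from the groups present in both sets. Library numbers of the first set run in unbroken blocks by group (13 to 16 for tianeptine, 17 to 20 for desipramine), so an effect of handling in that order cannot be told apart from the drug. The same holds for the SNI libraries of that set, numbered 1 to 4 for tianeptine and 5 to 8 for desipramine. All 24 medium spiny neuron markers were detected, with summed levels of 8545 to 14360 counts per M counts (CPM) with tianeptine and 8416.5 to 15866 CPM with desipramine. The punches also carried RNA of neighbouring tissue in unequal amounts. The score of cortical excitatory neuron markers, the mean over 20 markers of log2 CPM centred on all libraries, was 1.54, 0.66, 1.79 and -0.96 in desipramine replicates 1 to 4. It was -1.34, -1.68, 0.13, 0.25, 1.80 and 0.43 in tianeptine replicates 1 to 6, with replicates 1 and 2 lowest. The choroid plexus and ependyma score was 1.34, 0.24, -0.19, -0.62, -0.52 and 3.27 with tianeptine, against -0.58 to -0.06 with desipramine. The summed levels of the cortical markers ran from 448 to 2245 CPM with tianeptine and 566 to 2318 CPM with desipramine, and those of the choroid markers from 201 to 1317 CPM and 166 to 227 CPM. Between the drugs, 16 of 20 cortical markers were lower with tianeptine (median log2 difference -1.34). All 17 choroid plexus and ependyma markers tested were higher with tianeptine (median 1.49), and so were all 10 cholinergic markers (0.45). The median of the medium spiny neuron markers was -0.06. None of these lists held a gene called below. Of all genes tested, 12664 were higher with tianeptine and 11072 lower.

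**Figure D1:**
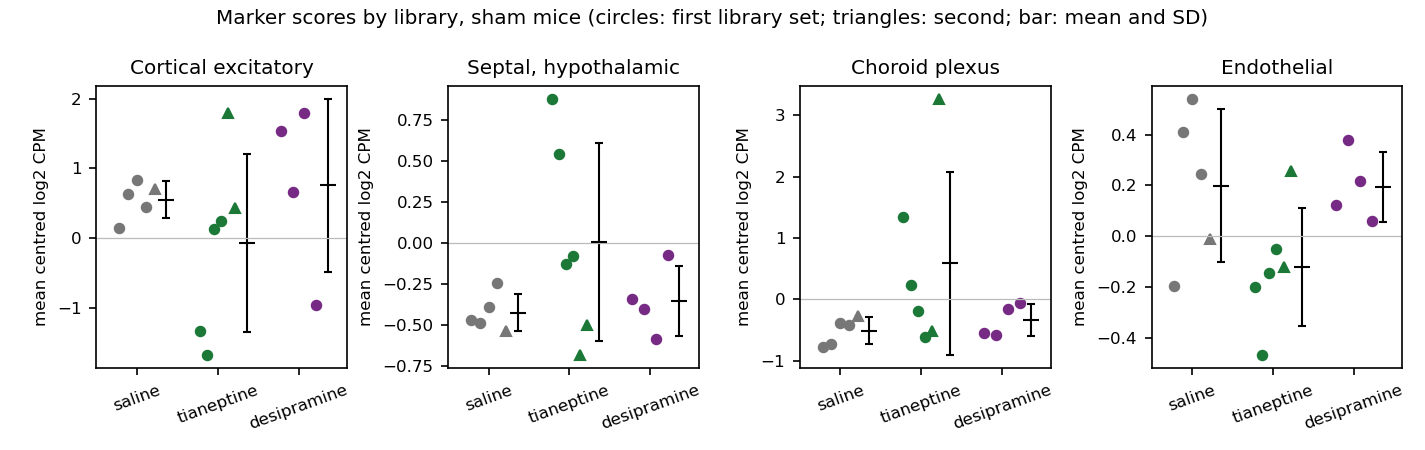
Marker scores of 15 sham libraries (vertical axes, mean of log2 CPM of the listed markers, each centred at 0 over the 30 libraries) by treatment, with the mean and SD beside each group. Cortical scores spread from -1.68 to 1.80 within tianeptine and from -0.96 to 1.79 within desipramine, and the choroid plexus score reached 3.27 in tianeptine replicate 6.

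Sham mice on tianeptine differed from sham mice on desipramine in 17 genes, 6 higher and 11 lower with tianeptine. The higher genes included Ciart, Nr1d2 and Dbp of the circadian clock. The lower ones included the clock activator Arntl, the growth factor response genes Vgf, Etv5, Spred2 and Spred3, the endoplasmic reticulum chaperone Calr and the vessel receptor Kdr. The 17 genes are 0.0716% of the 23736 tested at an adjusted p of 0.05 (edgeR quasi-likelihood test, 2-sided, Benjamini and Hochberg over all genes tested), 0.0253% higher and 0.0463% lower. At an unadjusted p of 0.05, 2865 genes (12.1%) passed. The median log2 difference of all genes tested was 0.01. In 16 of the 17 genes no tianeptine library overlapped a desipramine library, which held for 2.71% of all genes tested (1.48% with tianeptine above and 1.23% with desipramine above), and the exception was Spred2. A fit of the 2 groups alone called 0 genes with edgeR, with 3143 at an unadjusted p of 0.05. Within the first library set alone only Ciart passed, while the other 16 genes kept their sign at adjusted p values of 0.0667 to 0.121.

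Ciart, which encodes a repressor of the CLOCK and BMAL1 complex and lies at chr3:95878503-95882251, minus strand (mm10), showed the smallest p of all genes. Its level in desipramine replicates 1 to 4 was 4.05, 5.57, 5.34 and 4.74 CPM. The tianeptine libraries ran from 9.73 to 12.3 CPM (median 11). Every tianeptine library lay above every desipramine library, and the saline level lay between them at 7.47 ± 1.22 CPM (SD, n = 5). The log2 difference of tianeptine minus desipramine was 1.17 ± 0.13 (± SE), a 2.25-fold higher level (adjusted p = 3.8e-05). It passed without each of the 10 libraries in turn, with adjusted p values up to 7.79e-04, and in the first library set alone it was 1.16 (adjusted p = 0.00164). Its adjusted p over 24 alternatives ran from 4.94e-15 to 0.058, and the fit of the 2 groups alone (0.058) was the 1 that ended the call. The antisense gene C920021L13Rik overlaps Ciart on the opposite strand and was also higher (0.57 ± 0.09, adjusted p = 0.0106). Without desipramine replicate 1 it differed by 0.54 and did not pass (adjusted p = 0.0581). This gene is outside the rule for named genes and was chosen after its values were seen. The kit marks strand but the strand setting of the counting is not stated in these sources, so reads of the overlapping pair may not have been told apart. In all these bulk samples, fewer cells that express a gene and less RNA per cell cannot be told apart.

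The promoter of Ciart holds 3 copies of the E-box CACGTG within the 250 bases before its start in RefSeq, at -116, -58 and -44 (first base of each match). Of 32851 RefSeq promoter windows of the same length (build GRCm38.p6, 250 bases before to 50 after the start), 7.15% hold at least 1 E-box. It is shown with the promoters of Per3 and Bhlhe41 because these clock genes had the next smallest p values of the repressor and output lists among genes with a motif. The D-box TTATGTAA was found in 0.938% of windows, and Per3 holds 2. The ROR element, searched as the capitals of the Arntl line with any base allowed between the opening AA and the T, was found in 0.219% of windows, and the stretch around its match in Arntl, at +28 after the start, is shown. The cAMP response element TGACGTCA (1.79% of windows) was matched in none of these. Matches were exact on both strands. The motifs do not overlap one another. Capitals mark the motif, and each sequence runs 5′ to 3′ along the gene's strand.
Ciart, chr3:95882229-95882478, minus strand: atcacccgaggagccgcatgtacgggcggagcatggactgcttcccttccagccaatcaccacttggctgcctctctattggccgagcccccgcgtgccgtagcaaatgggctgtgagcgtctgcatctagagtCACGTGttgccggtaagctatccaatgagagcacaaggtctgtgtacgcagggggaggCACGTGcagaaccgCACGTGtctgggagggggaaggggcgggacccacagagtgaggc
Per3, chr4:151044666-151044915, minus strand: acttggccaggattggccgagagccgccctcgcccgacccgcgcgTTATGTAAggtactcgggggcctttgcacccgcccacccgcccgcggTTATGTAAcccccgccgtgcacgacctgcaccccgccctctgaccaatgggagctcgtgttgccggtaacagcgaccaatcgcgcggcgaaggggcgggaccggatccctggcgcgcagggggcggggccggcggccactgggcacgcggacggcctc
Bhlhe41, chr6:145865421-145865670, minus strand: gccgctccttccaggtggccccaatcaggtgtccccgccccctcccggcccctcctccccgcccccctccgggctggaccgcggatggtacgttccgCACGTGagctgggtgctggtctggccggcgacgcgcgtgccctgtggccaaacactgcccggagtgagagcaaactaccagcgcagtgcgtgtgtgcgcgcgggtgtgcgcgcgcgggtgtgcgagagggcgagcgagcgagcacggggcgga
Arntl, chr7:113207528-113207557, plus strand: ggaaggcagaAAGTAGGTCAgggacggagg
No match to these motifs was found in the windows of Nr1d2, Dbp or Nr1d1, which says only that these letters are not in the windows searched. The E-box was also matched in Per1 (-166), which did not pass, in Calr (-224), which was lower with tianeptine, and in Tef (-127 and -138, in different windows). The cAMP response element was matched in Hlf (-9).

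Nr1d2 encodes REV-ERB beta, the nuclear receptor that represses Arntl, and lies at chr14:18204054-18239127, minus strand. Desipramine replicates 1 to 4 had 92.7, 97.3, 83.7 and 95.7 CPM. With tianeptine the level ran from 121 to 169 CPM (median 135), with replicates 5 and 6 of the second library set highest. The groups did not overlap, and tianeptine was 0.49 ± 0.08 higher on the log2 scale (adjusted p = 0.0106), with saline at 121 ± 22.5 CPM (SD, n = 5). The first library set alone gave 0.46 (adjusted p = 0.083), and without desipramine replicate 3 the adjusted p was 0.0616. Nr1d1, its close relative REV-ERB alpha, was at 200.1 ± 8.72 CPM (SD, n = 4) with desipramine and 194 ± 14.4 CPM (SD, n = 6) with tianeptine. The Nr1d1 difference was 0.01 ± 0.06 (95% interval -0.12 to 0.14, adjusted p = 0.976), and its sign changed between alternatives.

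Dbp, a D-box activator whose transcript follows the clock in most tissues, lies at chr7:45705088-45710203, plus strand. Its levels were 56, 89.9, 55.2 and 86.1 CPM in desipramine replicates 1 to 4. Tianeptine libraries ran from 99.6 to 133 CPM (median 127), and saline stood at 112 ± 19 CPM (SD, n = 5). All desipramine libraries lay below all tianeptine libraries, with replicates 1 and 3 lower than 2 and 4. Tianeptine was 0.80 ± 0.16 higher (adjusted p = 0.048), a call that stood at the threshold. It passed without tianeptine replicate 5 or desipramine replicate 4, and did not pass without any 1 of the other 8 libraries (adjusted p 0.0543 to 0.237). Without desipramine replicates 1 and 3, the desipramine libraries of highest cortical score, the difference was 0.51 (adjusted p = 0.457), and with 4 marker scores as covariates it was 0.81 (adjusted p = 0.0169).

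Arntl, the activator on which the clock loop turns, differed in the other direction. It lies at chr7:113207465-113314126, plus strand. Desipramine replicates 1 to 4 had 62.6, 64, 59.2 and 71.9 CPM, against tianeptine levels from 36.9 to 47.2 CPM (median 40). The groups did not overlap, and saline lay between them at 50.9 ± 5.1 CPM (SD, n = 5). The log2 difference was -0.66 ± 0.12 (adjusted p = 0.0267), so desipramine libraries held 1.58-fold more. The call did not pass without tianeptine replicate 1, 3 or 4 or desipramine replicate 1, 2 or 4 (adjusted p 0.0525 to 0.0953). With 4 marker scores as covariates it was -0.64 (adjusted p = 0.00327). The antisense model Gm45355 overlaps Arntl and differed by -0.68 (adjusted p = 0.0658).

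**Figure D2:**
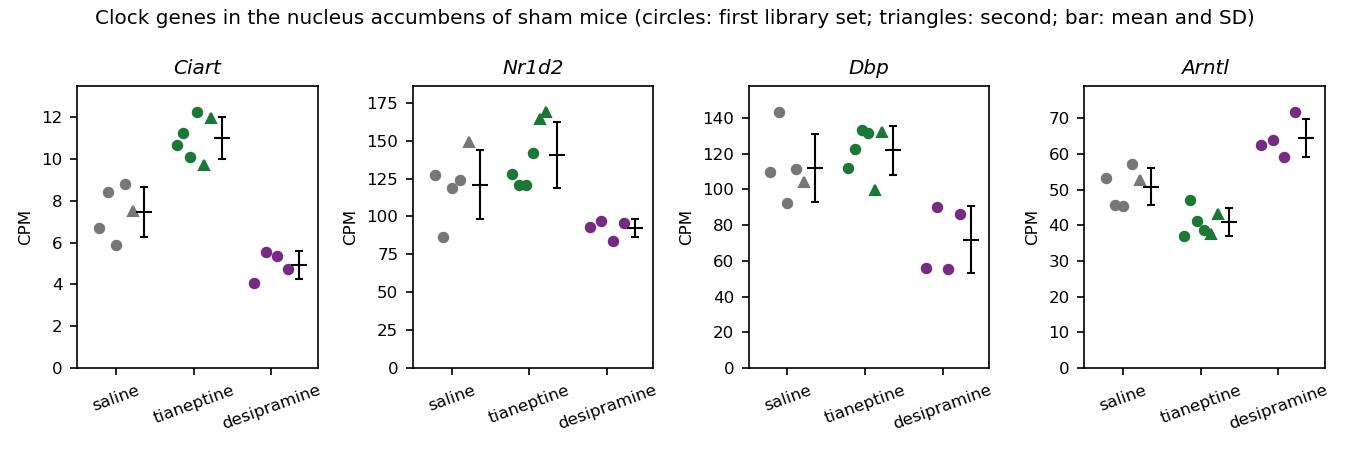
Levels of 4 clock genes in 15 sham libraries (vertical axes, CPM from 0) by treatment, each point 1 mouse, with the mean and SD beside each group. Ciart, Nr1d2 and Dbp were higher in every tianeptine library than in any desipramine library, and Arntl was lower in every tianeptine library.

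Over the whole clock the differences were uneven. Of 12 clock output genes, 1 passed, 10 had a positive and 2 a negative difference, and the median was 0.37. Among all genes tested 0.0716% passed, 53.4% were positive and the median was 0.01. The counts of every clock list stand beside these values. The score over the output genes was -0.25, -0.16, -0.25 and -0.13 in the desipramine libraries and 0.23, 0.13, 0.08, 0.15, 0.19 and 0.12 in the tianeptine libraries, so all desipramine libraries lay below all tianeptine libraries. Among its members, Bhlhe41, an E-box repressor, differed by 0.43 ± 0.11 (adjusted p = 0.137, with DESeq2 0.0277) and Nfil3, which represses D-boxes, by -0.39 ± 0.12 (adjusted p = 0.227). Of 12 genes of the repressor arm, 2 passed (Ciart and Nr1d2), 8 were positive and 4 negative, and the median was 0.01. The repressor score ran from -0.16 to -0.01 with desipramine and from 0.06 to 0.22 with tianeptine, also without overlap. Among the 44 lists scored, separation was not particular to the clock. The score of endoplasmic reticulum chaperones did not overlap either, from 0.02 to 0.19 with desipramine and from -0.13 to 0.01 with tianeptine. Each of these scores includes called genes, so its separation is not a result apart from those calls. Per3 was at 38.2, 53, 35.8 and 43.5 CPM in desipramine replicates 1 to 4 and from 51.5 to 60.7 CPM (median 60.4) with tianeptine. The Per3 difference was 0.42 ± 0.10 (adjusted p = 0.125), and it passed with DESeq2 (0.023) and with 4 marker scores as covariates (0.0358), within adjusted p values of 0.023 to 0.595 over 24 alternatives. Fbxl21, a ubiquitin ligase subunit that binds cryptochromes, differed by 0.37 ± 0.12 (adjusted p = 0.268), and by 0.18 with 4 marker scores as covariates. Per1 differed by 0.20 ± 0.16 and Per2 by 0.00 ± 0.13, whose sign changed between alternatives, with adjusted p values of 0.641 and 0.999. Of 7 activators 1 passed (Arntl), 3 were positive and 4 negative, and the median was -0.06.

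**Figure D3:**
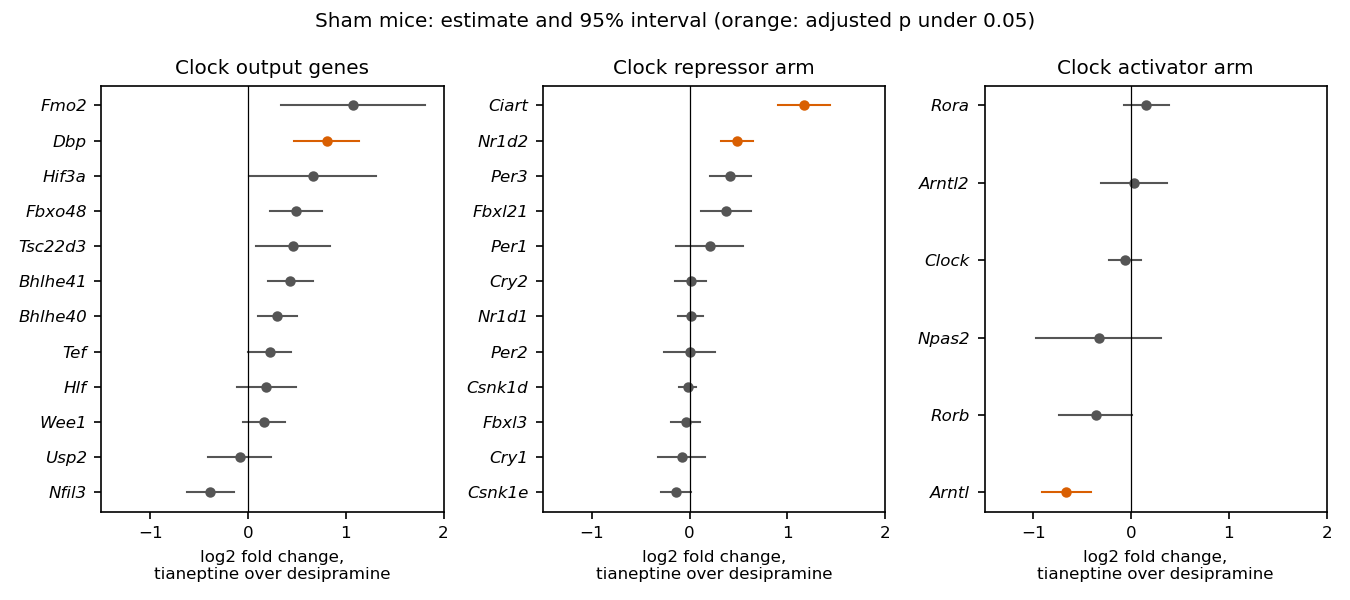
Log2 fold change of tianeptine over desipramine in sham mice (horizontal axes) with the 95% interval for members of 3 clock lists (12 output, 12 repressor and 6 of the 7 activator genes), ordered by size. Orange marks the 4 genes that passed, Dbp, Ciart, Nr1d2 and Arntl, and Per2, Nr1d1 and Cry2 lie at 0 with intervals on both sides of it.

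The second group of named genes belongs to growth factor signalling, in which RAS and the kinases RAF and ERK induce transcription factors of the ETV family and their own inhibitors. Vgf, a neuropeptide precursor induced by neurotrophins, lies at chr5:137026392-137033351, plus strand. Desipramine replicates 1 to 4 had 312, 324, 323 and 318 CPM, a narrow range. The tianeptine libraries ran from 184 to 248 CPM (median 219), and saline was 225 ± 32.5 CPM (SD, n = 5). No tianeptine or saline library reached the lowest desipramine library. The log2 difference was -0.54 ± 0.09 (adjusted p = 0.011), a 1.45-fold higher level with desipramine. It did not pass without tianeptine replicate 4 (adjusted p = 0.0514) or desipramine replicate 2 (0.0543).

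Etv5, an ETS family transcription factor induced by ERK, stood at 84.5, 91.3, 80.6 and 91.5 CPM in desipramine replicates 1 to 4. Tianeptine libraries ran from 51.5 to 72.8 CPM (median 61.2), and saline libraries averaged 65.1 ± 6.06 CPM (SD, n = 5). The groups of the 2 drugs did not overlap, and the difference was -0.60 ± 0.11 (adjusted p = 0.0267). This call did not pass without tianeptine replicate 1, 2 or 4 or desipramine replicate 1 or 2 (adjusted p 0.0583 to 0.131). With no library set term it was -0.52 (adjusted p = 0.0953). Its relative Etv4 differed by -0.33 ± 0.10 and did not pass (adjusted p = 0.218).

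Spred2 and Spred3 encode membrane proteins that restrain RAF activation. Spred3 had 71.1, 85.3, 78.8 and 84.1 CPM in desipramine replicates 1 to 4 and ran from 47.3 to 66 CPM (median 57.9) with tianeptine, without overlap. Its difference was -0.43 ± 0.08 (adjusted p = 0.0378), with saline at 55.6 ± 2.41 CPM (SD, n = 5). Spred3 passed without tianeptine replicate 2, 3 or 5 or desipramine replicate 1, and not without any 1 of the other 6 libraries (adjusted p 0.0525 to 0.166). Spred2 had 92.9, 86.7, 85.9 and 95.8 CPM with desipramine and ran from 70 to 87.4 CPM (median 75.7) with tianeptine. It is the called gene whose groups overlapped, since tianeptine replicates 5 and 6 of the second library set reached the lower desipramine libraries. Its difference was -0.30 ± 0.05 (adjusted p = 0.013) with the library set in the model, -0.22 (adjusted p = 0.344) without that term and -0.32 (adjusted p = 0.074) in the first library set alone. It also did not pass without tianeptine replicate 2 or 4 or desipramine replicate 1 (adjusted p 0.0507 to 0.0603).

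Of 20 genes on the list of ERK feedback and its targets, 19 were tested, 3 passed (all lower with tianeptine: Spred2, Etv5 and Spred3), 5 were positive and 14 negative, and the median difference was -0.18. Over all genes tested 0.0716% passed, 12664 were positive and 11072 negative, and the sham counts of the lists below stand beside these values. Against saline, 15 of the 19 were positive with desipramine (median 0.12) and 8 of 19 with tianeptine (median -0.03). The medians of all genes tested were -0.01 and 0.003. These 2 comparisons share the saline libraries and are only given side by side. The lean with desipramine was not particular to this list. Against saline, 20 postsynaptic scaffold genes were positive and 3 negative with desipramine (median 0.17), and 16 cortical markers positive and 4 negative (0.76). The list of 20 neurotrophin, receptor and granin genes had 1 that passed (Vgf), 5 positive and 15 negative, with a median of -0.19. Nptx2, a secreted pentraxin that clusters glutamate receptors, was at 49.3, 37.4, 47.7 and 27.4 CPM in desipramine replicates 1 to 4 and ran from 16.5 to 31.9 CPM (median 22.4) with tianeptine. Nptx2 differed by -0.98 ± 0.26 (adjusted p = 0.144, with DESeq2 0.0313), and by -0.52 with the cortical score as a covariate. Bdnf encodes a neurotrophin that cortical axons carry into the striatum as protein, whereas the values here are RNA of the punches. Its RNA was at 16.5, 5.82, 15.3 and 0.965 CPM in desipramine replicates 1 to 4 and ran from 0.877 to 11.7 CPM (median 2.3) with tianeptine. Bdnf was highest in desipramine replicates 1 and 3 and lowest in replicate 4, and the cortical score above was likewise highest in replicates 1 and 3 and lowest in 4. The Bdnf difference was -2.16 ± 0.76 (adjusted p = 0.282), and -0.50 with the cortical score as a covariate. The part of cortical tissue in the Bdnf difference was not tested beyond this covariate value. Ntrk2, the receptor of the protein that Bdnf encodes, differed by -0.16 ± 0.07 (adjusted p = 0.371).

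**Figure D4:**
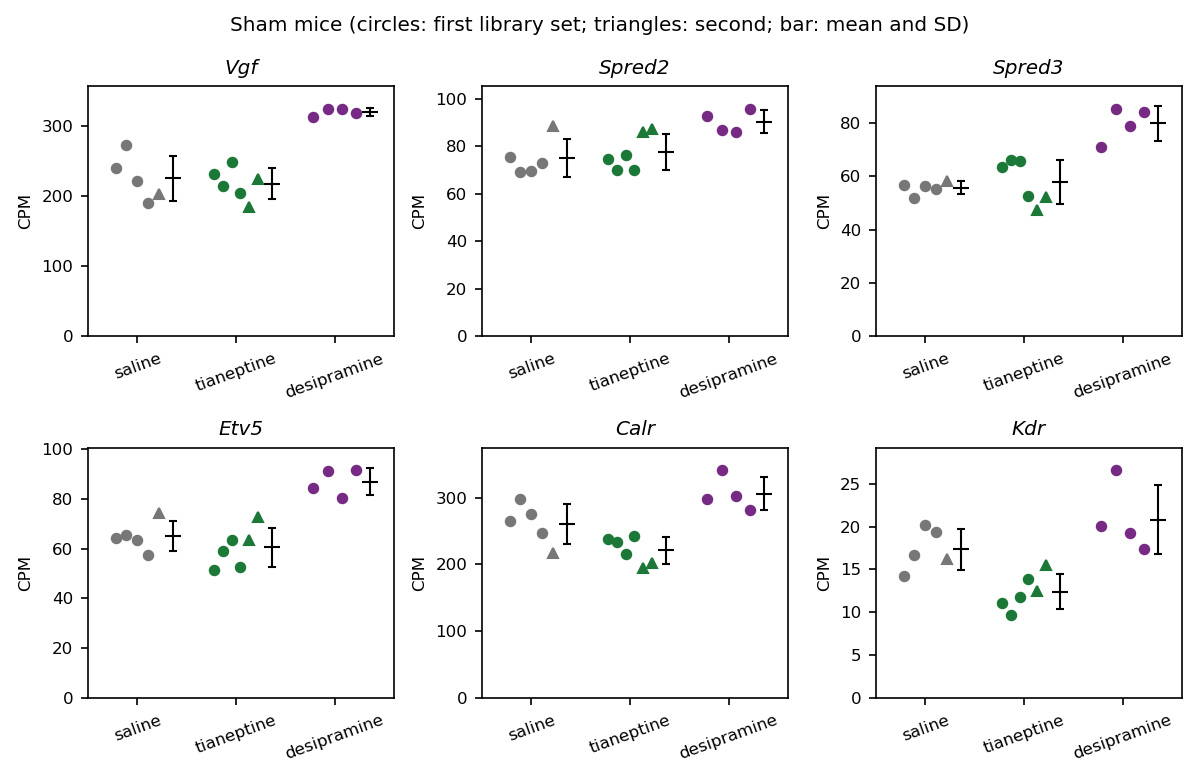
Levels of Vgf, Spred2, Spred3, Etv5, Calr and Kdr in 15 sham libraries (vertical axes, CPM from 0) by treatment, each point 1 mouse, with the mean and SD beside each group. The desipramine libraries lie above all tianeptine libraries for 5 of the genes, and Spred2 overlaps through the triangles of the second library set.

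Calr encodes calreticulin, a calcium-binding chaperone of the endoplasmic reticulum, and lies at chr8:84841850-84846934, minus strand. Desipramine replicates 1 to 4 had 298, 341, 303 and 282 CPM. The tianeptine libraries ran from 195 to 243 CPM (median 224), and saline lay between at 261 ± 30.6 CPM (SD, n = 5). The groups of the 2 drugs did not overlap, and the difference was -0.40 ± 0.06 (adjusted p = 0.0106). Leaving out desipramine replicate 2 ended the call (adjusted p = 0.0649), the 1 of 10 libraries to do so. The list of 18 such chaperones and folding enzymes had 1 that passed, 3 positive and 15 negative, with a median of -0.12. Pdia6, a disulphide isomerase, also had no overlap between the groups, with 95.1, 102, 91.2 and 93.8 CPM in desipramine replicates 1 to 4 and levels from 61.8 to 85.3 CPM (median 71.2) with tianeptine. Its difference of -0.31 ± 0.08 did not pass (adjusted p = 0.121), passed with DESeq2 (0.0154) and with 4 marker scores as covariates (0.0205), and ran over adjusted p values of 0.0154 to 0.395 in all 24 alternatives. The chaperone partner Dnajb11 differed by -0.21 ± 0.06 and the secreted stress protein Manf by -0.13 ± 0.04, with adjusted p values of 0.208 and 0.253, and Dnajb11 passed without desipramine replicate 4 (0.0488).

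Kdr, the main VEGF receptor of endothelial cells, lies at chr5:75932827-75978458, minus strand. It was at 20.1, 26.6, 19.2 and 17.4 CPM in desipramine replicates 1 to 4, with replicate 2 highest. Tianeptine levels ran from 9.68 to 15.5 CPM (median 12.1), all below the desipramine libraries, and saline was 17.3 ± 2.43 CPM (SD, n = 5). The difference was -0.78 ± 0.14 (adjusted p = 0.013). It did not pass without tianeptine replicate 1 or 2 or desipramine replicate 1 or 2 (adjusted p 0.0517 to 0.131). Of 18 endothelial markers 1 passed, 2 were positive and 16 negative, with a median of -0.34, and none was at 0 in all libraries of a group. The endothelial score was 0.12, 0.38, 0.22 and 0.06 in desipramine replicates 1 to 4 and -0.20, -0.47, -0.14, -0.05, -0.12 and 0.26 in tianeptine replicates 1 to 6, and the summed levels ran from 465.5 to 578 CPM and from 323 to 538 CPM. Cldn5, the tight junction protein of brain vessels, had 36.2, 41.9, 40.4 and 34.7 CPM with desipramine and ran from 16.7 to 31.3 CPM (median 22.2) with tianeptine, without overlap. The Cldn5 difference was -0.71 ± 0.17 (adjusted p = 0.11), and it passed without tianeptine replicate 6 (0.0228) and with DESeq2 (0.0117). Flt1, another VEGF receptor, differed by -0.50 ± 0.13 and Eng, a TGF beta co-receptor, by -0.66 ± 0.17, both with an adjusted p of 0.137, and both passed with DESeq2 (0.0294 and 0.0277). Of 13 mural cell markers 12 were negative, with a median of -0.25 and no call. Whether vessel content of the punches had a part in the Kdr difference was not tested.

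The other called genes belong to no list. Zfp607a, a zinc finger gene, had 1.7, 1.23, 1.62 and 1.59 CPM in desipramine replicates 1 to 4 and ran from 2.23 to 3.26 CPM (median 2.51) with tianeptine, a difference of 0.76 ± 0.13 (adjusted p = 0.0106) that did not pass without desipramine replicate 2 (0.0774). Its level is low and the related gene Zfp607b (0.05 ± 0.08, adjusted p = 0.847) may share reads with it. Blm, a DNA helicase of recombination repair, had 8.99, 9.08, 9.33 and 9.19 CPM with desipramine and ran from 11.2 to 13.4 CPM (median 11.9) with tianeptine, a difference of 0.44 ± 0.08 (adjusted p = 0.013). Blm did not pass without tianeptine replicate 2 or 4 or desipramine replicate 1 or 2 (adjusted p 0.0517 to 0.0774). Both genes were higher with tianeptine in every library.

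The rest were lower with tianeptine, again without overlap. Fmnl1, a formin that organises actin, had 113, 111, 126 and 91.4 CPM in desipramine replicates 1 to 4 and ran from 60.1 to 84 CPM (median 68.4) with tianeptine. Fmnl1 differed by -0.71 ± 0.14 (adjusted p = 0.0395), and by -0.49 with the cortical score as a covariate. Its antisense neighbour Gm20511 differed by -0.76 (adjusted p = 0.0683). Unc13a, which primes synaptic vesicles and was chosen after its values were seen, had 493.1, 591, 546 and 553 CPM in desipramine replicates 1 to 4 and ran from 368 to 421 CPM (median 399) with tianeptine, a difference of -0.47 ± 0.09 (adjusted p = 0.0395). The proton pump subunit Atp6v0a1 differed by -0.25 ± 0.05 and the tubulin gene Tubd1 by -0.48 ± 0.09, with adjusted p values of 0.0378 and 0.0332. These 4 calls depended on most of the libraries. When single libraries were left out, Fmnl1 and Tubd1 still passed only without tianeptine replicate 5 or desipramine replicate 4, Atp6v0a1 only without tianeptine replicate 3 or 5 or desipramine replicate 4, and Unc13a only without tianeptine replicate 5. Leaving out any 1 of the other libraries gave adjusted p values of 0.0507 to 0.21. With 4 marker scores as covariates, 14 of the 17 calls of the comparison passed and Blm, Atp6v0a1 and Unc13a did not (adjusted p 0.0515 to 0.0607).

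Just outside the threshold stood Mpp2, a scaffold protein of the synapse, at -0.31 ± 0.06 (adjusted p = 0.0504). The genes of smallest p that were higher with tianeptine but did not pass were Ptgr2, a prostaglandin reductase, at 0.24 ± 0.05 (adjusted p = 0.0615), the PI3 kinase inhibitor Pik3ip1 at 0.37 ± 0.08 and Dbt, a subunit of branched-chain keto acid dehydrogenase, at 0.26 ± 0.06, both with an adjusted p of 0.0658. All 4 passed with DESeq2 (adjusted p 0.00114 to 0.00498). With the stricter filter on low counts Mpp2, Ptgr2 and Dbt passed (adjusted p 0.0441 to 0.0459). Mpp2 also passed without tianeptine replicate 3 or desipramine replicate 4, and Dbt without desipramine replicate 4 (adjusted p 0.0161 to 0.0416). Of 23 postsynaptic scaffold genes, Mpp2 among them, 0 passed, 2 were positive and 21 negative, and the median was -0.26, while 9 had an unadjusted p under 0.05. Shank2, an organiser of the postsynaptic density, had 276, 242, 275 and 226 CPM in desipramine replicates 1 to 4 and ran from 183 to 239 CPM (median 194) with tianeptine. Shank2 differed by -0.40 ± 0.10 (adjusted p = 0.113, with DESeq2 0.0202), and by -0.21 with 4 marker scores as covariates. Shank1 differed by -0.55 ± 0.19 and Dlgap4 by -0.26 ± 0.09, with adjusted p values of 0.273 and 0.287, and by -0.29 and -0.14 with these covariates. The cortical marker score was above 0.6 in 3 of 4 desipramine libraries and below -1.3 in tianeptine replicates 1 and 2, and its part in the direction of this list was not tested beyond these covariate values.

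No receptor or transporter gene of either drug's known targets passed. Oprm1 was at 92.3, 63.7, 84.2 and 73.1 CPM in desipramine replicates 1 to 4 and ran from 53.2 to 82.9 CPM (median 70.4) with tianeptine, with overlap. Oprm1 differed by -0.31 ± 0.16 (95% interval -0.64 to 0.02, adjusted p = 0.449). Of 8 opioid peptide and receptor genes 0 passed, 3 were positive and 5 negative, and Oprl1, the nociceptin receptor, had the smallest p at 0.35 ± 0.16 (adjusted p = 0.384), and differed by 0.15 with 4 marker scores as covariates. Of 23 genes of opioid receptor signalling 0 passed and 19 were negative, with a median of -0.14. The part of the unequal cortical marker score in the direction of this list was not tested. Slc6a2 is made by noradrenaline neurons of the brainstem, and with 28 counts in the 30 libraries together it was too low to test. Of 14 tested genes of noradrenaline receptors and enzymes 0 passed, 6 were positive and 8 negative. Adra2a, the alpha-2A adrenoceptor, was at 28, 10.6, 35.7 and 4.15 CPM in desipramine replicates 1 to 4 and ran from 6.31 to 30.7 CPM (median 10.1) with tianeptine. Its difference of -0.45 ± 0.56 (95% interval -1.61 to 0.71) changed sign between alternatives. The alpha-1D adrenoceptor gene Adra1d differed by -0.95 ± 0.40 (adjusted p = 0.346), and by -0.21 with 4 marker scores as covariates. The dopamine receptor genes Drd1 and Drd2, which mark the main classes of medium spiny neurons, differed by 0.10 ± 0.37 and -0.05 ± 0.34 (95% intervals -0.67 to 0.86 and -0.75 to 0.65), and both changed sign between alternatives. Fos, a marker of recent neuronal activity, was at 20.8, 5.42, 18.8 and 4.49 CPM in the desipramine libraries and ran from 7.23 to 25.2 CPM (median 16.5) with tianeptine, a difference of 0.39 ± 0.56 (95% interval -0.76 to 1.54, adjusted p = 0.825). The intervals of Adra2a, Drd1, Drd2 and Fos reach past 0.6 in both directions, so differences of that size in these 4 genes are not excluded by these data.

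Set against saline, each drug alone gave 0 genes that passed with edgeR. At an unadjusted p of 0.05, 1623 genes (6.84%) passed for tianeptine and 1810 (7.63%) for desipramine, DESeq2 called 1 and 22, and limma-voom called 0 and 0. Both comparisons use the same 5 saline libraries, so their values are only set side by side. Ciart differed from saline by 0.56 ± 0.11 with tianeptine and -0.61 ± 0.13 with desipramine, Arntl by -0.32 ± 0.11 and 0.34 ± 0.13, and Calr by -0.20 ± 0.06 and 0.19 ± 0.07. For these 3 genes the saline mean lay between the drugs. Vgf differed from saline by -0.04 ± 0.08 with tianeptine and 0.50 ± 0.09 with desipramine, Spred2 by 0.01 ± 0.05 and 0.31 ± 0.05, Spred3 by 0.06 ± 0.08 and 0.50 ± 0.09, and Etv5 by -0.14 ± 0.10 and 0.46 ± 0.11. For these the saline mean lay near that of tianeptine. Dbp differed by 0.14 ± 0.14 and -0.67 ± 0.16 and Kdr by -0.50 ± 0.13 and 0.28 ± 0.14. The smallest adjusted p of these values was 0.0599, for Spred2 and Spred3 with desipramine.

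The same contrast in mice with SNI called 315 genes (1.33% of those tested), 76 higher (0.32%) and 239 lower (1.01%) with tianeptine, and 5095 (21.5%) at an unadjusted p of 0.05. It compares other animals, but came from the same fit of all 30 libraries. The library set term and the spread were shared with the sham contrast, so the estimates of the 2 contrasts are not fully independent. The SNI punches also differed in tissue content between the drugs, as the sham punches did in the marker lists above. The medium spiny neuron score was -0.71 ± 1.11 (SD, n = 4) with desipramine and 0.08 ± 0.31 (SD, n = 6) with tianeptine, with summed levels of 2495.5 to 14201 CPM and 7939.7 to 14673 CPM. All 24 of these markers had a positive difference, with a median of 0.56. With desipramine the mean septal, cholinergic and thalamic scores were 0.83, 0.71 and 0.62, against 0.03, -0.03 and -0.02 with tianeptine. The part of tissue content in the SNI values was not tested. The SNI contrast called 5 of the 17 genes, all in the direction seen in sham mice, which is 29.4% of the sham calls and 1.59% of the SNI calls. They were Ciart (0.77 ± 0.13, adjusted p = 0.0147), Dbp (0.96 ± 0.16, 0.0147), Calr (-0.28 ± 0.06, 0.0376), Kdr (-0.54 ± 0.14, 0.0453) and Nr1d2 (0.31 ± 0.08, 0.0486). Ciart averaged 9.77 ± 1.07 CPM (SD, n = 6) with tianeptine and 5.77 ± 0.698 CPM (SD, n = 4) with desipramine in SNI. The sign matched that in sham mice for 15 of the 17 genes, beside 48.9% of all genes tested, and the exceptions were Etv5 and Blm. Clock output genes were positive in 9 of 12 in SNI, with a median of 0.51 and 3 calls, and the repressor arm in 10 of 12, with a median of 0.32 and 4 calls. Over all genes tested in SNI, 11927 were positive and 11809 negative. Nr1d1, at 0.01 ± 0.06 in sham mice, differed by 0.33 ± 0.06 in SNI (adjusted p = 0.0195). On the ERK feedback list 13 were positive and 6 negative in SNI, with a median of 0.11 and no call. The SNI count moved with single libraries. Without tianeptine replicate 2 or 3 or desipramine replicate 2 or 3 of SNI, 0 genes passed, with 2194 to 4146 at an unadjusted p of 0.05. Without desipramine replicates 2 and 3 together, 0 genes passed (1039 unadjusted), and Ciart differed by 0.78, Dbp by 0.70, Calr by -0.28, Kdr by -0.49 and Nr1d2 by 0.31. Leaving out desipramine replicate 4 gave 4825 calls, tianeptine replicate 6 gave 641, and tianeptine replicate 1 or 5 or desipramine replicate 1 gave 48 to 91.

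Whether the drug difference itself differed between sham and SNI mice was tested with the interaction term. It called 0 genes (0% of those tested) with edgeR and with limma-voom, against 976 with DESeq2, and 4580 (19.3%) had an unadjusted p under 0.05. Of the 17 sham genes 12 had an unadjusted interaction p under 0.05, a description only, since they were picked for their sham difference. Among them the interaction was nearest to the threshold for Blm, Etv5 and Zfp607a, which differed by -0.05 ± 0.08, 0.04 ± 0.11 and 0.08 ± 0.12 in SNI. Their adjusted p values for the interaction in edgeR were 0.0627, 0.0702 and 0.0704. For Dbp, Calr, Kdr, Spred3 and Nr1d2 the adjusted interaction p was 0.756, 0.516, 0.524, 0.497 and 0.392, which does not show that the drug differences were alike.

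**Figure D5:**
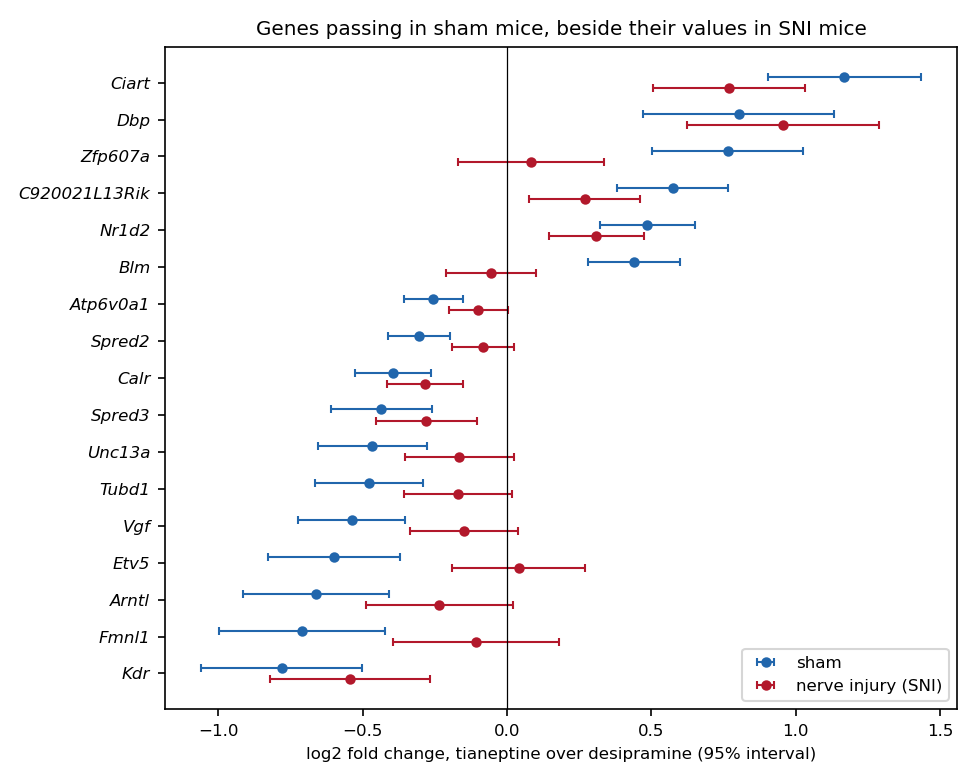
Log2 fold change of tianeptine over desipramine with its 95% interval (horizontal axis) for the 17 genes that passed in sham mice, in sham and in SNI mice, which are separate animals. The intervals of both lie on the same side of 0 for Ciart, Dbp, C920021L13Rik, Nr1d2, Calr, Spred3 and Kdr, and the SNI values of Etv5 and Blm lie near 0.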

How the data were processed

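RNA sequencing of polyadenylated RNA was used from all 30 libraries, with the 6 groups taken from the sample labels. The deposited table holds whole-number counts for 55401 gene IDs per library, which the authors made, per the submitters' processing notes, with Trim Galore, HISAT2, SAMtools and featureCounts on mm10. Versions, strand setting and annotation release were not given in the sources used here. A deposited FPKM table was not used.

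GENCODE M21 (mm10) supplied the symbols and positions. 54349 IDs matched exactly, 792 without the version and 260 not at all (0.051% of counts). With edgeR 4.0.16 (limma 3.58.1, R 4.3.3), filterByExpr kept 23736 genes (99.925% of counts). Libraries were scaled by TMM. A robust quasi-likelihood model was fitted to all 30 libraries with 6 group terms and 1 library set term (replicates 5 and 6 against the rest). Residual degrees of freedom were 23, prior ones 3.14 in the median, and the common biological coefficient of variation was 17.5%. Tests were 2-sided, p-values were adjusted after Benjamini and Hochberg across every tested gene, and the threshold was 0.05. Levels are TMM-scaled CPM, differences are log2 with their SE, and intervals have a level of 95%. List scores use log2 CPM with a prior count of 2, over 44 lists. The test was also run on simulated counts, drawn independently for each gene. They hold no tissue differences shared across genes, so this run does not cover the unequal tissue content of these libraries.

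Libraries held 24.5 to 120.7 M counts. No 2 replicates agreed within sampling noise (lowest chi-square over its degrees of freedom 7.56). The members, gene lists, rules and alternatives were chosen with earlier results of these data known. Named genes were, among those passing, up to 8 per direction of smallest p and 4 of largest change whose mean log2 CPM reached 1, filled by rank where fewer passed, up to 4 members per list (predicted models and Y-linked genes counted but not named), and Oprm1, Slc6a2, Adra2a, Drd1, Drd2, Fos, Bdnf, Ciart, Dbp, Nr1d1, Per1, Per2, Arntl, Spred2, Spred3 and Vgf. Alternatives were RLE scaling, DESeq2 1.42.0, limma-voom, no filter or CPM of at least 1 in 4 libraries, no library set term, the first set alone, the 2 groups alone, a replicate block, scores of cortical, septal, choroid plexus and oligodendrocyte markers as covariates, and left-out libraries. The cortical score alone as a covariate, and leaving out tianeptine replicates 1 and 2, 1 and 6, or SNI desipramine replicates 2 and 3, were added after seeing the data. The ROR element was also searched after seeing the data. Promoters came from RefSeq (GRCm38.p6), in which 16 of 18 genes looked up matched. The values of 1 clock activator are not reported here.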

Additional observations from a re-analysis of the deposited data

Results flagged for a closer look

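In the sham groups of 4, 5 and 6 libraries, single libraries were looked for whose gap to the nearest other library was large against the range of the group, by Dixon's 95% limits. Of 198 groups of values examined for the genes named above and the marker scores, 11 (5.56%) held such a library, where chance gives about 1 in 20. Desipramine replicate 2 was the library concerned for Flt1 (104.2 CPM, the others 82.1 to 83.9), Dlgap4 (372 CPM, the others 343 to 346), Ddit4 (27.3 CPM, the others 31.9 to 32.6) and Ndufs1 (101.6 CPM, the others 109 to 110.1). Tianeptine replicate 5 stood apart for Bdnf (11.7 CPM, the others 0.877 to 4.15), Shank2 (239 CPM, the others 183 to 201) and Adra1d (3.35 CPM, the others 1.07 to 1.53). Its cortical marker score of 1.80 was the highest of its group. Tianeptine replicate 1 was low for Per3 (51.5 CPM, the others 58.5 to 60.7). Among the saline libraries, replicate 3 was high for Adra2a (19.7 CPM, the others 5.27 to 8.93) and Shank1 (410.3 CPM, the others 313 to 338), and replicate 4 was low for Manf (76.8 CPM, the others 84.6 to 86.5). None of these genes passed the edgeR test between the drugs in sham mice, and Flt1, Shank2, Ddit4 and Per3 passed with DESeq2 (adjusted p 0.0294, 0.0202, 0.0282 and 0.023).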

How the results depend on the processing

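The 17 calls between the drugs in sham mice became 152 with DESeq2, 17 with limma-voom or RLE scaling, 14 to 20 under the other filters, 13 with no library set term, 1 in the first library set, 0 in the 2 groups alone, 23 with 4 marker scores and 18 with the cortical score. They became 1 (Ciart) without desipramine replicates 1 and 3, 1 (Ciart) without tianeptine replicates 1 and 2, 9 without tianeptine replicates 1 and 6, and 4 (without desipramine replicate 2) to 38 (without desipramine replicate 4) when single libraries were left out. Some of these settings hold fewer samples, and the cause of the changes in count was not tested. The SNI calls (315) became 1247 with DESeq2, 101 with limma-voom, 27 in the first library set, 0 without desipramine replicates 2 and 3, and 0 to 4825 when single libraries were left out. DESeq2 called 976 genes for the interaction and 1 and 22 against saline.

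The replicate block gave 11 calls in sham (10 of the 17 kept), 41 in SNI and 0 for the interaction and both saline comparisons. Same-numbered sham libraries of the drugs correlated, in their deviations from the group means, at 0.09, 0.03, 0.16 and -0.08, not all above 0.1, so the numbers were not taken to pair the animals. Not every library correlated best with its own number, since tianeptine replicate 2 and desipramine replicate 4 gave 0.51.

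All 17 called genes kept their sign in all 24 alternatives. Of 1344 gene values under alternatives, 33 turned sign, in 5 genes that never passed. Apart from single left-out libraries, these were for Per2 -0.0051 with RLE, -0.0051 with DESeq2, -0.0081 with no filter, -0.0013 with the stricter filter, -0.048 with 4 scores, -0.072 with the cortical score, -0.20 without desipramine replicates 1 and 3, -0.076 without tianeptine replicates 1 and 2, and -0.031 without 1 and 6. For Nr1d1 they were -0.00021 with no filter and -0.042 with no library set term. For Drd2 they were 0.0056 with 4 scores and 0.13 without tianeptine replicates 1 and 2. For Drd1 it was -0.23 without desipramine replicates 1 and 3. For Adra2a they were 0.22 with 4 scores, 0.42 with the cortical score and 0.96 without desipramine replicates 1 and 3. Without single libraries, some values of each gene turned and others did not. They ran from -0.091 to 0.11 for Per2, -0.013 to 0.031 for Nr1d1, -0.22 to 0.13 for Drd2, -0.080 to 0.31 for Drd1 and -0.91 to 0.0078 for Adra2a.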

Other observations

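Other gene lists gave no call with edgeR in sham mice, and their counts are given beside 53.4% positive differences and a median of 0.01 over all genes tested. Of 20 glucocorticoid targets, 15 were positive with a median of 0.16. Ddit4, an inhibitor of mTOR signalling, had 32, 27.3, 31.9 and 32.6 CPM in desipramine replicates 1 to 4 and ran from 32.9 to 52.1 CPM (median 39) with tianeptine, without overlap, a difference of 0.44 ± 0.11 (adjusted p = 0.134). Mt2, a metallothionein, differed by 0.37 ± 0.10 (adjusted p = 0.142). Ddit4 and Mt2 passed with DESeq2 (0.0282 and 0.0415). Of 24 oligodendrocyte and myelin markers 20 were positive, with a median of 0.15, and of 21 microglial markers 18 were negative, with a median of -0.10. Among the microglial markers Fcrls had 25.4, 28.6, 26.1 and 27 CPM with desipramine and ran from 18.3 to 21.6 CPM (median 21) with tianeptine, again without overlap, a difference of -0.37 ± 0.08 (adjusted p = 0.0683, with DESeq2 0.00842).

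Of 13 interneuron markers 8 were negative, with a median of -0.26. Npy differed by -0.42 ± 0.16 and Nos1, which shares its interneurons, by -0.30 ± 0.11, with adjusted p values of 0.309 and 0.299, and by -0.28 and -0.33 with 4 marker scores as covariates. Of 25 cholesterol synthesis genes 18 were negative, with a median of -0.07, and their regulator Srebf2 differed by -0.27 ± 0.07 (adjusted p = 0.128, with DESeq2 0.0202), and by -0.18 with 4 marker scores as covariates. Of 22 sodium and calcium channel genes 18 were negative, with a median of -0.11, and Cacna1a, the P/Q-type calcium channel, differed by -0.30 ± 0.08 (adjusted p = 0.186). Immediate early genes were positive in 12 of 30 in sham mice, with a median of -0.13, and in 28 of 30 in SNI mice, with a median of 0.55. Beside the SNI value, the medium spiny neuron markers were positive in 24 of 24 there, with a median of 0.56, and their part in it was not tested. Over all genes tested in SNI, 11927 were positive and 11809 negative. The 72 nuclear genes of oxidative phosphorylation had a median of 0.02, and Ndufs1, a complex I subunit, had the smallest p at 0.17 ± 0.05 (adjusted p = 0.208). The 77 cytosolic ribosomal protein genes had a median of 0.03.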
